A study of Mus musculus with 32 samples.

Results

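The H2 genes encode the mouse major histocompatibility complex (MHC), the cell surface proteins that show peptides to T cells. All genes of a deposited RNA polymerase II (Pol II) ChIP-seq table whose symbol begins with "H2-" were taken, which gave 39 of 27179 genes. The rule used the symbol and no measured value, though members were chosen with earlier results of these data known. By symbol they were 3 classical class I genes (H2-K1, H2-D1 and the neighbouring H2-K2), 6 genes of the Q region, 7 of the T region, 12 of the M region, 5 classical class II genes, 5 nonclassical class II genes and H2-Ke6. H2-Ke6, also named Hsd17b8, encodes a dehydrogenase and no MHC chain. It lies between H2-K1 and the class II genes and is kept apart below.

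Class I molecules pair a heavy chain with the light chain B2m, carry peptides made in the cytosol, and are read by CD8 T cells and natural killer cells. Nearly all nucleated cells make them, in amounts that interferons raise and that are known to be small in neurons. Class II molecules pair an alpha and a beta chain, carry peptides made in endosomes for CD4 T cells, and are made mainly by dendritic cells, B cells and macrophages. The Q, T and M regions hold nonclassical class I genes with narrower tissue use. H2-DM and H2-O load and edit the peptides of class II.

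Brain, heart, kidney and liver of mice were kept in 1 of 2 ways: snap frozen, or placed in 10% formalin and then in paraffin blocks (FFPE). Frozen cores were then crosslinked in 1% formaldehyde for 30 min, and FFPE sections were heated to 95 °C for 20 min, so preservation and extraction differ together. Chromatin was precipitated with an antibody to the Pol II C-terminal domain, which bears on how much polymerase sits on a gene and not on its RNA. The labels list 32 libraries in 16 groups of 2, and replicates 1 and 2 differ in sequencing date and library kit. The table has 1 column for each organ and preservation, called a profile here, and the labels do not say whether a column joins both libraries. The sources used here give no strain, sex, age or number of mice, and the 8 profiles are not known to be separate animals. With 1 profile for each organ and preservation, the p-values rest on how far the FFPE difference varies between organs, moderated over all genes. They do not measure the spread between animals. Input libraries were not analysed here.

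Profiles held 864816 (FFPE liver) to 2178329 (frozen liver) reads in genes, and mitochondrial genes took from 7.73% to 25.6% of them, most in FFPE heart and FFPE kidney (19.2%). For each organ, all 5 of its defining genes (for liver Alb, Apoa1, Fgb, Tat and Serpina1b) passed the test as higher in that organ. Levels below are log2 RPM (reads scaled to a common library total), with 0.5 reads added, and differences are on the same log2 scale with their standard error. A gene is called at a Benjamini-Hochberg adjusted p under 0.05 from limma over the 26758 genes tested, which include all 39 H2 genes. The span over which reads were counted is not given, so levels are compared between organs and not between genes. The exception is silent receptor genes (vomeronasal and olfactory), whose medians by profile were 1.59 to 2.31 and which give a rough floor. In whole tissue, fewer cells of a type and less polymerase per cell cannot be told apart.

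Of the 39 genes, 38 matched a RefSeq position, all on chromosome 17 (GRCm38.p6), and H2-T9 did not. RefSeq lists 34 as protein coding and 4 as transcribed pseudogenes (H2-K2, H2-T10, H2-Bl and H2-Ea). H2-Ea, the alpha chain of the E molecule, is not made in some laboratory strains. Reads over the 8 profiles summed to between 48 for H2-Oa and 755 for H2-D1. Many H2 genes are near copies of one another, above all within the Q and M10 groups, and alleles differ widely between strains. How reads that match several copies were treated is not given, so values of such copies are uncertain, and the part of strain in any value was not tested. A total of 6 members overlap another gene, whose reads cannot be separated here: H2-T22, H2-T23 and H2-T24 overlap A930015D03Rik, H2-T10 overlaps BC023719, H2-Oa overlaps BC051537 and H2-DMa overlaps Brd2.

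The promoters of H2-K1 and H2-D1, the classical class I pair called lower in brain, and of H2-Aa, an alpha chain of class II, are shown with that of H2-Q10. H2-Q10, which encodes a class I protein that hepatocytes secrete, was added after its values were seen. Each RefSeq sequence (GRCm38.p6) runs 5′ to 3′ on the gene's strand from 250 bases before to 50 after the start. The positions are chr17:34000298-34000597 (minus strand) for H2-K1, chr17:35262844-35263143 (plus) for H2-D1, chr17:35469839-35470138 (plus) for H2-Q10 and chr17:34287774-34288073 (minus) for H2-Aa. Capitals mark matches on either strand to CCAAT (bound by NF-Y), TGACG (the core of a cyclic AMP response element), GAAANNGAA (the core of an interferon response element) and GGGATTCCC (a form of the NF-kappaB site).
H2-K1: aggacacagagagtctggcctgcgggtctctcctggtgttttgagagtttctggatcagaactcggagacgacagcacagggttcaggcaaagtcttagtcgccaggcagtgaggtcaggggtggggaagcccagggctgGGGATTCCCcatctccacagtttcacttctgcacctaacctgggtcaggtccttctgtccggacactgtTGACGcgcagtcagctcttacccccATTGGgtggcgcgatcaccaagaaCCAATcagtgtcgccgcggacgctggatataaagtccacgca
H2-D1: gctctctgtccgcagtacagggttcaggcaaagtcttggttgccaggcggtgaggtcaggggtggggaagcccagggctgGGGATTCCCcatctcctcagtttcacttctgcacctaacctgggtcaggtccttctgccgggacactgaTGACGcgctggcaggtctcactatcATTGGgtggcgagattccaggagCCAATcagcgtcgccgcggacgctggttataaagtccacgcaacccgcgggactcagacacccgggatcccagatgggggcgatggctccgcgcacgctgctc
H2-Q10: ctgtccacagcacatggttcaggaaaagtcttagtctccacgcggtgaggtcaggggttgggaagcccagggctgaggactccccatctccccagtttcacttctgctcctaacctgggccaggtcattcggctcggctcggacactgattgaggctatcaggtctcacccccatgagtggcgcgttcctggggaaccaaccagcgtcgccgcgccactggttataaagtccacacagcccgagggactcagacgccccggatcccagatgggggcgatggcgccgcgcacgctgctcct
H2-Aa: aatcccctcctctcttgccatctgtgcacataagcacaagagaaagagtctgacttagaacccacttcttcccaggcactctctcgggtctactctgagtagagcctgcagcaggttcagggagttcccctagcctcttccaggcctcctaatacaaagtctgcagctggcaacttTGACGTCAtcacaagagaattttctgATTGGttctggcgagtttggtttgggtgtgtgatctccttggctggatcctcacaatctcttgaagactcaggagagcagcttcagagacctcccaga

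H2-D1 held GGGATTCCC 170 bases before its start, TGACG at 101 and CCAAT at 76 and 53 bases before it. In H2-K1 the same order of matches was found at other distances. GGGATTCCC lay 110, TGACG 41 and CCAAT 16 bases before the start shown, with the other CCAAT 8 bases after it. From another annotated H2-K1 start, the CCAAT matches lay 30 and 6 bases before. H2-Q10 was identical to H2-D1 over 82.2% of 309 aligned columns, and none of the 4 motifs matched in it. In H2-Aa the TGACG matches, one on each strand, overlap each other and lie before CCAAT. Over the 31 H2 genes with a promoter in the table, CCAAT was present in 28 (90.3%), against 41.1% of all 27025 genes. TGACG was present in 12 (38.7%, against 23.05%) and GAAANNGAA in 2 (6.45%, against 9.76%), H2-T22 and H2-T23. GGGATTCCC was present in 4 (12.9%, against 0.41%): H2-K1, H2-D1, H2-Q6 and H2-Q7. Many H2 promoters are close copies, such as H2-M10.3 and H2-M10.5 (90.3% identical) or H2-D1 and H2-Q6 (79.9%). Their matches are therefore not independent of one another. A match describes these letters and shows no binding. H2-Ab1, H2-Ea, H2-K2, H2-Q1, H2-T9, H2-T10, H2-T24 and H2-Bl had no promoter in the table.

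In brain, 8 of 39 H2 genes were lower than in the mean of the other organs and none was higher. All 8 were class I, as are 28 of the 39. Over all genes tested, 4.02% were called lower in brain and 3.43% higher, or 2.9% and 1.44% when profiles were scaled to silent receptor genes. The 8 are from the fit without that scaling, under which H2-Q7 was not called. An unadjusted p under 0.05 was reached by 12 of the 39, against 18.3% of all genes. The median H2 difference was -0.37, against 0.01 over all genes. The 8 were both intact classical genes (H2-K1 and H2-D1), 4 of 6 Q genes (H2-Q4, H2-Q6, H2-Q7 and H2-Q10), H2-T23 and H2-M3. All 6 Q genes lay below 0 with a median of -1.40, whereas the 12 M genes had a median of 0.35 and 8 of 12 above 0. The M median was -0.02 among frozen and 0.89 among FFPE profiles, and 4 of the 12 changed sign between them. For the Q genes it was -1.17 and -1.23. Among the M genes, H2-M10.4, H2-M11, H2-M10.1 and H2-M2 averaged between 1.79 and 2.18 over the 8 profiles, near silent receptor genes.

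H2-K1 (chr17:33996012-34000619) read 4.42 in frozen and 4.05 in FFPE brain, 6.12 and 6.12 in heart, 5.12 and 5.27 in kidney, and 7.26 and 6.09 in liver. Both brain profiles lay below all 6 others. The brain difference was -1.77 ± 0.28 (SE, 2 against 6 profiles; limma adjusted p = 0.000256), or 0.294 times the level elsewhere, and it was called under all 17 alternatives. H2-D1 (chr17:35263094-35267497), the second classical heavy chain, read 4.73 and 4.25 in brain, 6.60 and 5.96 in heart, 5.62 and 5.64 in kidney, and 7.25 and 4.77 in liver. Brain was again lowest, with FFPE liver just above frozen brain, and the difference was -1.48 ± 0.34 (adjusted p = 0.00678). H2-K2, the pseudogene next to H2-K1, was not called in any comparison and differed by -0.33 in brain.

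**Figure D1:**
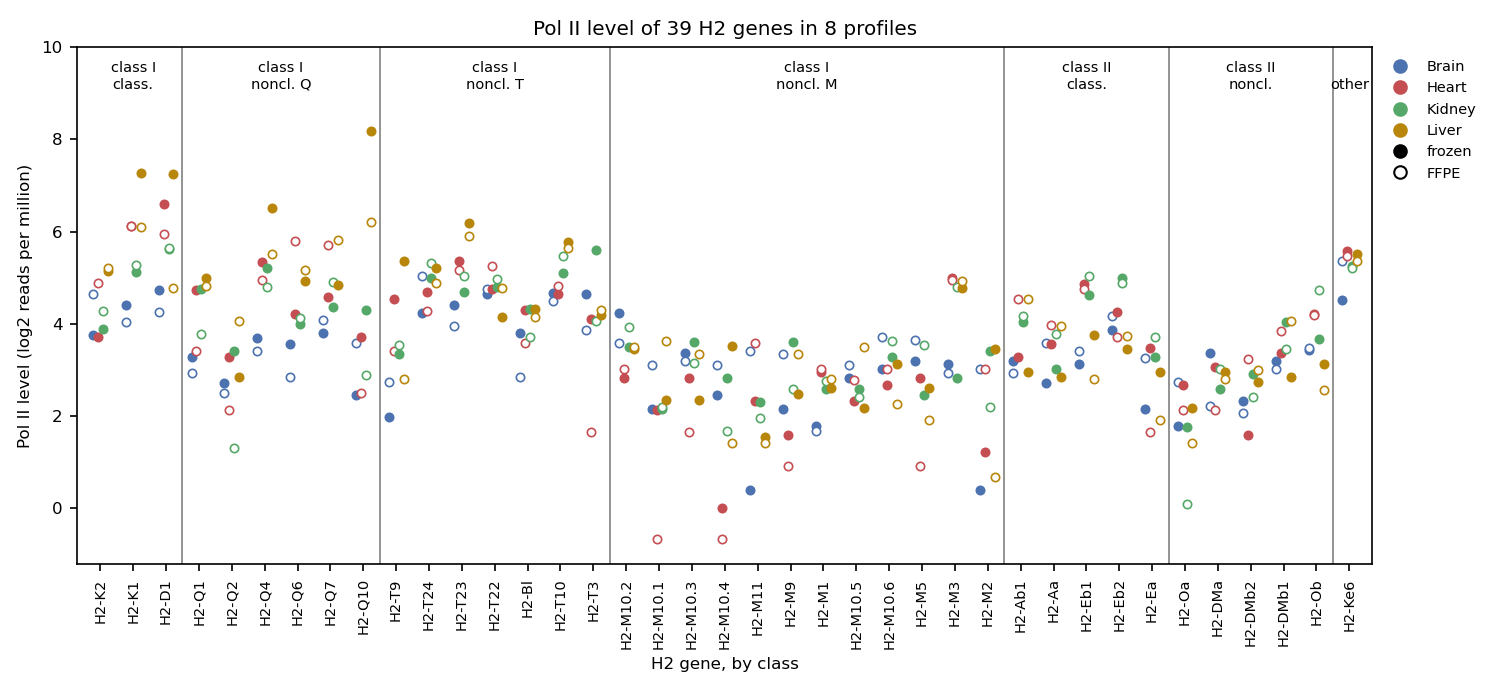
Pol II level of each of the 39 H2 genes (log2 RPM) in 8 profiles, grouped by class; filled points are frozen and open points FFPE, coloured by organ. Brain points sit at the bottom for H2-K1, H2-D1 and H2-Q4, and the frozen liver point of H2-Q10 is at 8.18.

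Among the Q genes, H2-Q4 (chr17:35379617-35384674) read 3.69 in frozen and 3.41 in FFPE brain, 5.34 and 4.94 in heart, 5.20 and 4.81 in kidney, and 6.50 and 5.51 in liver. No brain profile reached any other, and the difference was -1.84 ± 0.30 (limma adjusted p = 0.000361). H2-Q6 and H2-Q7 encode Qa-2, a class I protein often tethered by a lipid, and are close copies. H2-Q6 read 3.57 and 2.84 in brain, 4.21 and 5.80 in heart, 3.99 and 4.12 in kidney, and 4.94 and 5.17 in liver. H2-Q7 read 3.80 and 4.09 in brain, 4.57 and 5.70 in heart, 4.37 and 4.91 in kidney, and 4.83 and 5.82 in liver. Both were lowest in brain, by -1.50 ± 0.41 for H2-Q6 (adjusted p = 0.0252) and -1.09 ± 0.32 for H2-Q7 (adjusted p = 0.0387).

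H2-T23 (chr17:36029977-36032701) encodes Qa-1, the ligand of an inhibitory receptor of natural killer cells. It read 4.42 in frozen and 3.96 in FFPE brain, 5.37 and 5.16 in heart, 4.69 and 5.04 in kidney, and 6.19 and 5.90 in liver. Both brain profiles were below the rest, by -1.21 ± 0.29 (limma adjusted p = 0.0107). H2-M3 (chr17:37270234-37274485), which presents peptides that begin with formyl-methionine, read 3.12 and 2.93 in brain, 4.99 and 4.94 in heart, 2.82 and 4.81 in kidney, and 4.78 and 4.93 in liver. Frozen kidney, with 13 reads, was lower than either brain profile, so the groups overlapped, and the difference was -1.52 ± 0.44 (adjusted p = 0.0331). H2-Q10 was called in brain at -1.60 ± 0.47 (adjusted p = 0.038), but its difference was -2.93 among frozen and -0.27 among FFPE profiles.

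The uncalled member nearest the threshold was H2-Q1, at -1.31 ± 0.41 in brain (limma adjusted p = 0.0509). H2-T9 differed by -1.48 ± 0.57 in brain (0.141), from 7 and 13 reads there. H2-T10 and H2-T22, close copies known as ligands of gamma delta T cells, were not called in brain, with differences of -0.66 and -0.09.

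The 8 brain calls rest on few profiles. Without frozen brain 1 remained (H2-K1), without FFPE brain 3 (H2-K1, H2-Q4 and H2-Q10), without FFPE kidney 4, without frozen kidney 5 and without frozen heart 6. Without FFPE heart 4 of the 8 remained with H2-Q1 added, and without frozen liver H2-Q10 was lost and H2-Q1 added. With mitochondrial genes and scaling factors left out, 5 remained.

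In liver, 4 H2 genes were higher than in the other organs and none was lower, again all class I. Over all genes 4.52% were called higher in liver and 3.39% lower, or 2.89% and 1.3% when scaled to silent receptors and 3.95% and 4.67% with mitochondrial genes and scaling factors left out. The unadjusted p was under 0.05 for 12 of the 39, against 19.3% of all genes. The median H2 difference was 0.27, against -0.02 over all genes. By class the medians were 1.03 for the Q genes, 0.99 for classical class I, 0.47 for the T genes, 0.06 for the M genes, -0.04 for nonclassical class II and -0.49 for classical class II. The classical class I median is the value of the H2-K2 pseudogene. H2-D1 differed by 0.54 ± 0.34 (1.60 among frozen and -0.51 among FFPE profiles) and was not called.

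H2-Q10 (chr17:35470089-35474563) read 2.47 in frozen and 3.59 in FFPE brain, 3.71 and 2.50 in heart, 4.29 and 2.90 in kidney, and 8.18 and 6.20 in liver. The liver profiles stood above all others at 545 and 68 reads, against 104 reads in the 6 others together. The difference was 3.95 ± 0.47 (limma adjusted p = 6.89e-06), or 15.4 times the level elsewhere, and it was called in all 17 alternatives. The other 3 genes called were H2-K1 at 1.50 ± 0.28 (adjusted p = 0.00116), H2-Q4 at 1.44 ± 0.30 (adjusted p = 0.00339) and H2-T23 at 1.27 ± 0.29 (adjusted p = 0.0067). H2-Q4 and H2-T23 did not overlap between liver and the rest, while FFPE liver (6.09) fell just below heart (6.12) for H2-K1. Without frozen liver only H2-Q10 was called (3.20, with H2-K1 at 0.94), and without FFPE liver 6 were, with H2-D1 and H2-T9 added.

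**Figure D2:**
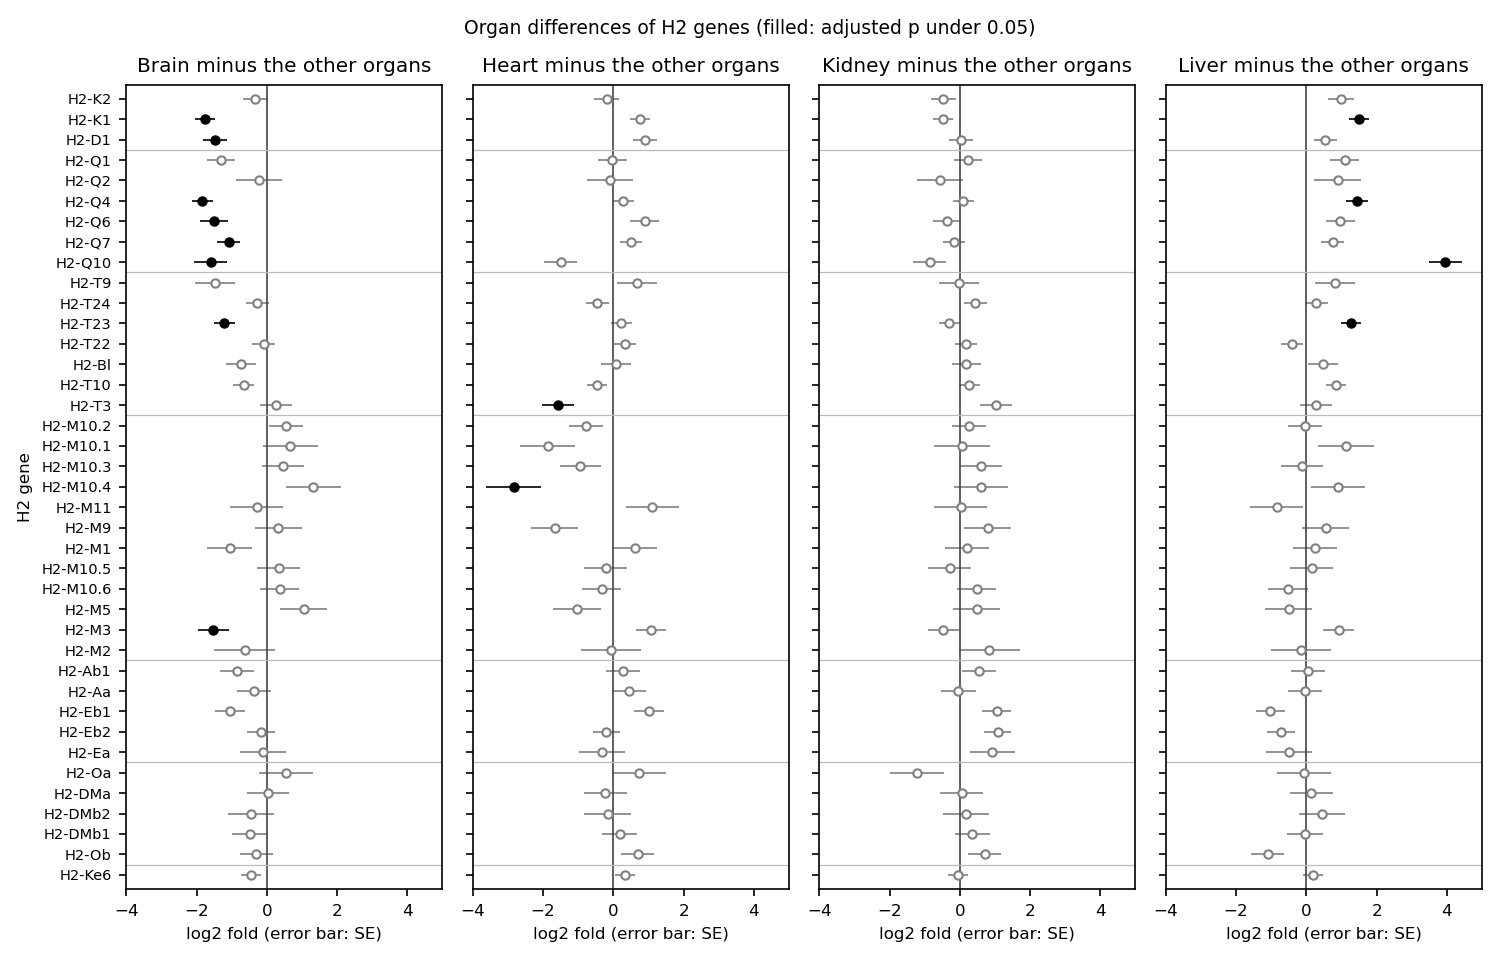
Difference of each H2 gene between 1 organ and the mean of the others (log2, bars are standard errors from limma), with genes called at an adjusted p under 0.05 filled. Brain has 8 filled points, all below 0; heart has 2 below 0, kidney none, and liver 4 above 0 with H2-Q10 at 3.95.

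In heart, 2 H2 genes were lower and none higher, H2-M10.4 and H2-T3. Over all genes 2.18% were called lower and 3.06% higher in heart, or 0.863% and 2.66% when scaled to silent receptors. Under that scaling H2-T3 was not called. Of the 39, 10 had an unadjusted p under 0.05, against 18.1% of all genes. H2-M10.4 belongs to the M10 genes, known from sensory neurons of the vomeronasal organ. Its mean over the 8 profiles was 1.79, near silent receptor genes. H2-M10.4 had 1 read in frozen and 0 in FFPE heart, against 10 and 17 in brain, 13 and 4 in kidney, and 21 and 2 in liver. That is a read ratio of 0.066 with an exact binomial interval (95%, counting error only) from 0.002 to 0.379; the fitted difference was -2.83 ± 0.78 (limma adjusted p = 0.0329). H2-T3, the thymus leukaemia antigen known from thymocytes and gut epithelium, read 4.65 in frozen and 3.86 in FFPE brain, 4.10 and 1.65 in heart, 5.61 and 4.06 in kidney, and 4.20 and 4.31 in liver. FFPE heart, with 2 reads, was far below, whereas frozen heart lay above FFPE brain and FFPE kidney, so the groups overlapped. H2-T3 differed by -1.57 ± 0.46 (adjusted p = 0.045). Both heart calls were lost without frozen heart, without FFPE heart, without either kidney profile and without FFPE brain. Leaving out frozen liver ended the call of H2-M10.4, with H2-T3 still called lower and H2-D1 and H2-K1 called higher; leaving out frozen brain or FFPE liver ended that of H2-T3.

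In kidney no H2 gene was called, and 3 of 39 had an unadjusted p under 0.05 (H2-Eb1, H2-Eb2 and H2-T3), against 10.6% of all genes. Over all genes 0.919% were called higher and 0.456% lower, or 1.26% and 0.378% with mitochondrial genes and scaling factors left out. The largest class median in kidney was that of classical class II, 0.93, with 4 of 5 genes above 0, against 0.00 over all genes. No class II gene was called in any organ, though H2-Eb1 was called lower in brain in 1 of 17 alternatives.

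The classical class II genes encode the A molecule (H2-Aa and H2-Ab1) and the E molecule (H2-Eb1 and H2-Ea), with H2-Eb2 as a further beta chain gene. H2-Eb1 read 3.12 in frozen and 3.41 in FFPE brain, 4.87 and 4.75 in heart, 4.63 and 5.04 in kidney, and 3.76 and 2.80 in liver. Heart and kidney were above brain and liver in both preservations. Its differences were 1.05 ± 0.42 in kidney (limma adjusted p = 0.309), 1.02 ± 0.42 in heart (0.182), -1.05 ± 0.42 in brain (0.154) and -1.02 ± 0.42 in liver (0.159), none of them called. H2-Eb2, with most reads of the class, read 3.86 and 4.17 in brain, 4.26 and 3.72 in heart, 5.00 and 4.88 in kidney, and 3.45 and 3.75 in liver. Both kidney profiles were highest, by 1.08 ± 0.39 (adjusted p = 0.248).

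H2-Aa read 2.72 in frozen and 3.59 in FFPE brain, 3.55 and 3.97 in heart, 3.02 and 3.79 in kidney, and 2.85 and 3.96 in liver. H2-Ab1, its beta chain partner, read 3.21 and 2.93 in brain, 3.28 and 4.54 in heart, 4.04 and 4.18 in kidney, and 2.95 and 4.53 in liver. The organs overlapped for both, and the largest organ difference was -0.85 ± 0.48 (H2-Ab1 in brain, limma adjusted p = 0.382). These genes had 12 to 31 reads per profile. H2-Ea summed to 98 reads.

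H2-DMa, H2-DMb1 and H2-DMb2 encode the DM molecule, which exchanges the peptides of class II. H2-DMa read 3.36 in frozen and 2.23 in FFPE brain, 3.07 and 2.14 in heart, 2.59 and 3.03 in kidney, and 2.95 and 2.80 in liver. H2-DMb1 read 3.21 and 3.02 in brain, 3.38 and 3.85 in heart, 4.04 and 3.46 in kidney, and 2.85 and 4.06 in liver. H2-DMb2 read 2.32 and 2.07 in brain, 1.59 and 3.23 in heart, 2.92 and 2.41 in kidney, and 2.73 and 3.01 in liver. Organs overlapped for all of these, and the differences lay between -0.49 (H2-DMb1, brain) and 0.45 (H2-DMb2, liver).

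H2-Oa and H2-Ob encode the DO molecule, which inhibits DM in B cells. H2-Ob read 3.43 in frozen and 3.47 in FFPE brain, 4.21 and 4.19 in heart, 3.68 and 4.73 in kidney, and 3.14 and 2.56 in liver. Both liver profiles of H2-Ob were lowest, by -1.10 ± 0.47 (limma adjusted p = 0.185). H2-Oa, with the fewest reads of all members, read 1.78 and 2.73 in brain, 2.67 and 2.14 in heart, 1.76 and 0.09 in kidney, and 2.18 and 1.42 in liver. Its mean over the 8 profiles, 1.85, was near silent receptor genes, and its lowest value is a single read in FFPE kidney. H2-Ke6 read 4.52 and 5.36 in brain, 5.58 and 5.48 in heart, 5.26 and 5.22 in kidney, and 5.51 and 5.37 in liver, and was not called.

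Summed reads show the organ order of each class. Classical class I took 60.6 RPM in frozen brain (exact Poisson interval, 95%, 50.0 to 72.7), 98.1 in kidney, 178 in heart and 340 in liver (314 to 368). In FFPE tissue the order changed, with 59.6 in brain, 107 in kidney, 131 in liver and 159 in heart, and the intervals of liver (109 to 156) and heart (133 to 190) overlap. Without the H2-K2 pseudogene the FFPE sums were 35.0 in brain, 87.9 in kidney, 94.4 in liver and 131 in heart. The Q genes took 59.0 in frozen brain and 478 in frozen liver, a sum that fell to 187 in liver once H2-Q10 was set aside; without it FFPE liver was at 180 and FFPE brain at 46.8. Classical class II took 42.2 and 56.7 in frozen and FFPE brain, 45.8 and 60.1 in liver, 79.2 and 79.1 in heart, and 89.7 and 106 in kidney. The FFPE heart interval (60.8 to 101) overlapped those of FFPE brain (46.8 to 68.0) and FFPE liver (45.4 to 78.0). Not every member followed the order of the sums, as the organs overlapped for H2-Aa and H2-Ab1. Liver was thus highest for class I and, with brain, lowest for class II in frozen tissue. The T genes took 132 and 124 in brain, 177 and 143 in heart, 197 and 188 in kidney, and 260 and 207 in liver. The M genes stayed between 79.6 (frozen brain) and 109 (FFPE brain) and nonclassical class II between 33.5 (FFPE brain) and 50.3 (FFPE kidney). These sums have no test.

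**Figure D3:**
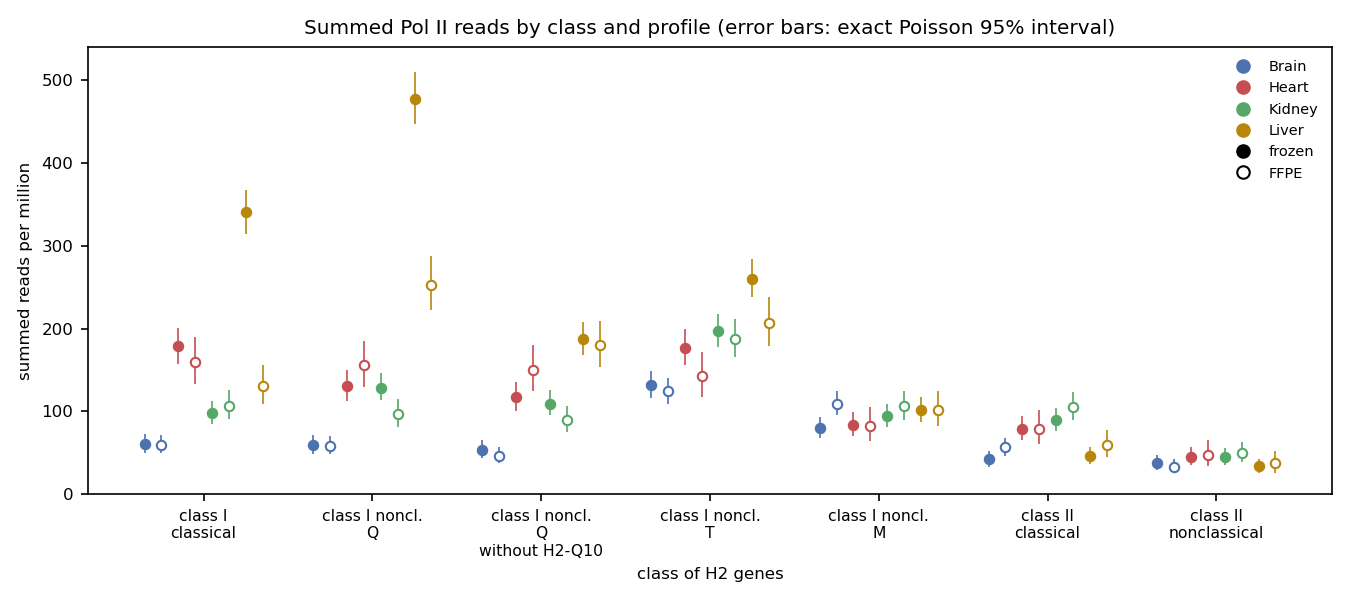
Summed RPM of each H2 class in the 8 profiles, with exact Poisson 95% intervals that cover counting error only; filled points are frozen and open points FFPE. Frozen liver is highest for classical class I (340) and the Q genes (478), while kidney and heart are above brain and liver for classical class II. There the FFPE heart interval overlaps those of FFPE brain and FFPE liver.

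Preservation moved no H2 gene past the threshold over the 4 organs: 0 of 39 were called and 4 had an unadjusted p under 0.05, against 9.32% of all genes. Over all genes 0.153% were called higher and 0.422% lower in FFPE tissue. The 4 were H2-D1 (-0.90 ± 0.29, limma adjusted p = 0.236), H2-T3 (-1.17 ± 0.40, 0.266), H2-Q7 (0.74 ± 0.28, 0.35) and H2-Q10 (-0.87 ± 0.41, 0.516). H2-Q7 was higher in FFPE tissue in 4 of 4 organs, and the other 3 were lower in 3 of 4. The median H2 difference was 0.02, against -0.01 over all genes. By class the medians ran from -0.54 for the Q genes to 0.13 for nonclassical class II.

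Within liver, 7 of 39 H2 genes had an FFPE over frozen read ratio whose interval lay below 1, close to the 18.1% of all genes. All 7 were class I, as are 28 of the 39. The interval lay above 1 for 4 others: H2-Ab1 (3.02), H2-DMb1 (2.32), H2-Q2 (2.32) and H2-Q7 (1.98). H2-D1 had 285 frozen and 25 FFPE reads there, a ratio of 0.177 (exact binomial interval, 95%, 0.112 to 0.266) after scaling to the totals. For H2-K1 the ratio was 0.441 (0.330 to 0.581), for H2-Q10 0.251 (0.192 to 0.324) and for H2-Q4 0.498 (0.346 to 0.701). H2-T9 had 77 and 6 reads (0.157, 0.056 to 0.358), H2-M10.4 21 and 2 (0.192, 0.022 to 0.785) and H2-M2 20 and 1 (0.101, 0.002 to 0.630). The FFPE effect on H2-D1 was -2.47 in liver and -0.37 in the mean of the others, a difference of -2.10 ± 0.47 (1 organ against 3; limma adjusted p = 0.0263). Of the 39 it was the single gene called, against 0.531% of all genes in either direction, and 5 had an unadjusted p under 0.05, against 11.3%. That call was lost with quantile normalization (-1.76, adjusted p = 0.211), with mitochondrial genes and scaling factors left out (-1.79, 0.0617) and when scaled to silent receptors (-2.50, 0.233), which shifts the median of all genes to -0.42. No gene was called for a different FFPE effect in brain, heart or kidney (0% of all genes each); of the 39 H2 genes, 1, 2 and 1 had an unadjusted p under 0.05 there, against 1.48%, 6.13% and 3.83% of all genes. The 5 liver-defining genes summed to 7714 RPM in frozen and 1309.8 in FFPE liver, and B2m read 6.36 and 5.29. The part of these lower liver values in that of H2-D1 was not tested.

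Other genes moved in single organs. H2-M3 had 13 reads in frozen and 39 in FFPE kidney, a ratio of 4.08 (2.13 to 8.32). H2-M11 had 2 and 21 reads in frozen and FFPE brain (9.82, interval 2.40 to 86.4), while H2-M2 had 2 and 16 there (7.48, 1.76 to 67.1). These intervals cover counting error only, with 1 profile per side. H2-M11 and H2-M2 averaged 2.12 and 2.18 over the 8 profiles, near silent receptor genes. Of the 39 genes, the interval excluded 1 for 7 in brain (6 of them above 1), 9 in heart (4 above), 6 in kidney (2 above) and 11 in liver (4 above). The shares over all genes were 21.3%, 22.1%, 22.7% and 30.9%.

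**Figure D4:**
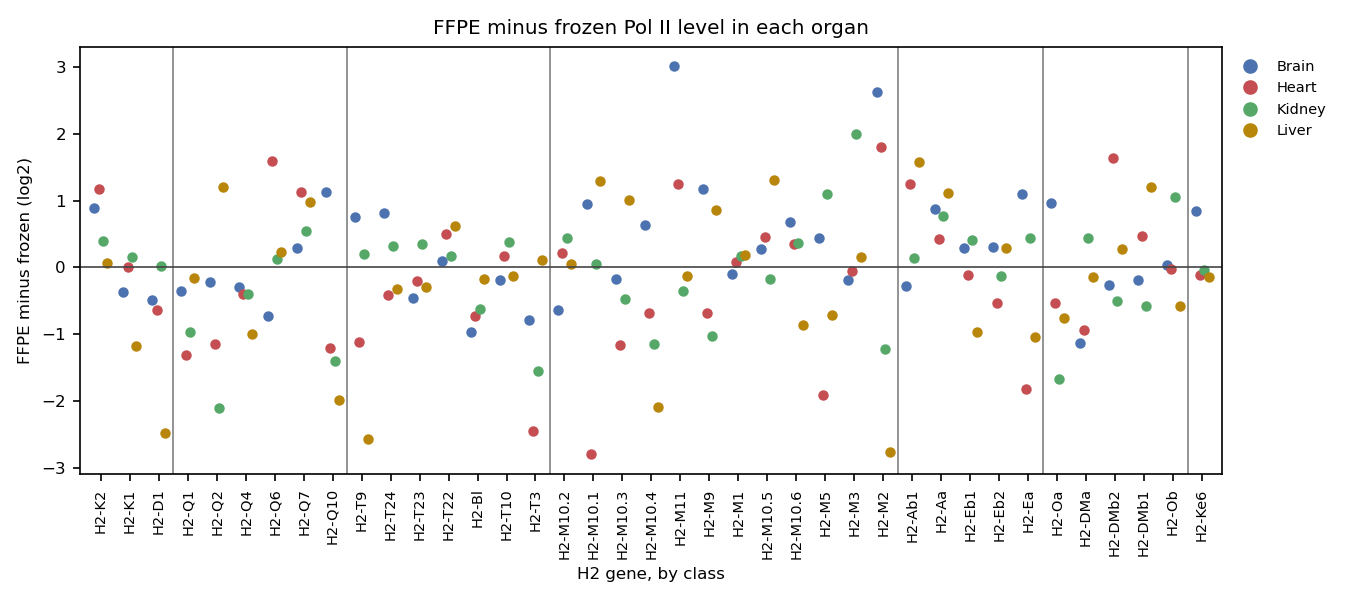
FFPE minus frozen level of each H2 gene (log2) within each organ, 1 profile per side. H2-D1 in liver lies at -2.47, away from its other organs, while H2-M11 and H2-M2 in brain lie at 3.01 and 2.63.

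Genes that make, move or load class I peptides were tested in the same comparisons. Of 14 such genes, 3 were called lower and none higher in brain, and 4 higher and none lower in liver. The shares of all genes called were 4.02% lower in brain, 4.52% higher in liver, 3.06% higher in heart and 0.422% lower in FFPE tissue. B2m, the light chain of class I, read 3.75 in frozen and 3.71 in FFPE brain, 5.37 and 6.01 in heart, 4.54 and 4.34 in kidney, and 6.36 and 5.29 in liver. It was lowest in brain, by -1.59 ± 0.33 (limma adjusted p = 0.00323), and differed by 1.21 ± 0.33 in liver (0.0246). The brain call was lost without either brain profile and the liver call without each of the 4 frozen profiles, without FFPE kidney and when scaled to silent receptors. Tap2, of the peptide transporter, differed by -1.05 ± 0.33 in brain (adjusted p = 0.0498; -1.54 among frozen and -0.57 among FFPE profiles), and Pdia3, a chaperone of peptide loading, by -0.87 ± 0.23 (0.0177). Pdia3 (1.34), Canx (0.90) and Calr (0.87), all of them general chaperones of the endoplasmic reticulum, were called higher in liver with B2m. Without frozen liver these differences were 0.97, 0.34 and 0.47, and that of B2m 0.61. In heart Tapbp, which links class I to the transporter, was called higher by 1.09 ± 0.27 (0.0169; 0.64 among frozen and 1.53 among FFPE profiles). Calr was called lower in FFPE tissue by -0.93 ± 0.21 (0.0386). Tap1 (-0.66), Psmb8 (-1.26) and Psmb9 (-1.05), the last 2 of the immunoproteasome, were not called in brain.

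Of 7 genes of the class II route, Ctsl, a lysosomal protease, was called higher in liver by 1.51 ± 0.26 (limma adjusted p = 0.000537), and no other was called in any comparison. Of all genes, 4.52% were called higher in liver. Cd74, the invariant chain, read 3.63 in frozen and 4.77 in FFPE brain, 4.35 and 4.94 in heart, 4.44 and 4.39 in kidney, and 3.76 and 4.06 in liver. Ciita, the master activator of class II genes, read 6.10 and 6.01 in brain, 5.82 and 5.63 in heart, 5.41 and 6.10 in kidney, and 5.62 and 6.02 in liver. Organs overlapped for both. Ctss, which cuts the invariant chain, differed by 1.22 ± 0.54 in liver (adjusted p = 0.203).

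Of 15 regulators of MHC genes, 3 were called lower in brain: Irf8 (-1.52 ± 0.32, limma adjusted p = 0.00407), Irf1 (-1.49 ± 0.25, 0.000505) and Ifngr1 (-1.11 ± 0.27, 0.0131). In liver Irf8 (1.12), Irf2 (0.92) and Irf1 (0.87) were called higher, and in heart Ifngr1 (1.01). The shares of all genes were 4.02% lower in brain, 4.52% higher in liver and 3.06% higher in heart. Without frozen liver the liver differences of Irf2 and Irf1 were 0.41 and 0.40. Irf1 and Irf8 are interferon regulatory factors, and Ifngr1 is a chain of the interferon gamma receptor. Nlrc5, the activator of class I genes, was not called anywhere and differed by -0.59 ± 0.27 in brain. Of 22 interferon response genes, 4 were called lower in brain (Bst2, Oasl2, Irgm1 and Irgm2), against 4.02% of all genes. In liver 3 were called higher, against 4.52%, with Bst2 at 2.32, Iigp1 at 2.18 and Mx2 at 1.13. The liver difference of Iigp1 was 3.72 among frozen profiles, where liver had 433 reads, and 0.65 among FFPE profiles, where it had 37. Bst2 is a membrane tether of viruses, and Iigp1 is a GTPase induced by interferon. None of either list was called lower in liver or higher in brain.

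Cell type markers were read in the same profiles. None of 13 leukocyte and macrophage genes, 8 B cell genes or 9 T and natural killer cell genes was called in any of the 5 comparisons. Their unadjusted p fell under 0.05 for at most 1 gene in any list and comparison, against 9.32% to 19.3% of all genes. The leukocyte and macrophage list summed to between 275 and 325 RPM in the 8 profiles, with no gene at 0. Some of its genes sat near silent receptor genes, whose medians by profile were 1.59 to 2.31. C1qb averaged 2.02 in brain and 1.62 elsewhere, and Tyrobp 1.95 and 2.06. Such sums cannot show whether organs hold equal numbers of these cells. Of 9 dendritic cell genes, Clec10a was called lower in liver (-1.70 ± 0.50, limma adjusted p = 0.0373). Of 10 endothelial genes, 3 were called lower in brain (Egfl7, Kdr and Esam), 6 higher in heart and Pecam1 lower in liver. The shares of all genes were 4.02% lower in brain, 3.06% higher in heart and 3.39% lower in liver. The endothelial list summed to 325 and 336 RPM in brain, 456 and 455 in liver, 676 and 633 in kidney, and 1219.5 and 999 in heart. Endothelial genes were thus called lower in brain, as class I genes were, and none was called higher in liver; their part in the class I values was not tested. Of the calls in the pathway and cell type lists, Egfl7 and Kdr in brain and heart and Bst2, Ctsl and Pdia3 in liver held in all alternatives, and the others were lost without at least 1 profile.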

How the data were processed

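Per the submitters' processing notes, the authors used Bowtie2, mm10, featureCounts and limma, with no versions stated. The deposited log2 values carry 0.5 added reads and scaled totals, as limma's voom function does, and each (100%) was a whole number of reads (relative tolerance 1e-06). A gene was tested where 2 or more profiles had a log2 value of 0 or higher (26758 genes). The fit (limma 3.58.1, R 4.3.3, empirical Bayes with trend) had organ and preservation as terms, 3 residual and 19.4 prior degrees of freedom, and was tested on simulated data. Each organ was compared with the mean of the others, and FFPE with frozen within organs. Organ differences in the FFPE effect had 2 residual degrees of freedom, the lone organ being assumed to vary like the others. Promoters (RefSeq, GRCm38.p6) were aligned with Biopython 1.88. Values are given for 13 preset H2 genes, every member called and the member with most reads in each class, and for 8 preset pathway genes with list members called (up to 4 a list and comparison). Members and lists were chosen with earlier results of these data known.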

Additional observations from a re-analysis of the deposited data

Results flagged for a closer look

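Among the 4 FFPE profiles, H2-M3 read 2.93 in brain against 4.81 to 4.94 in the others, a gap of 0.933 of the whole range. For H2-T3, FFPE heart read 1.65 against 3.86 to 4.31 in the others, a gap of 0.831 of the range. Chance sets apart about 1 in 20 groups of 4, and 40 groups were looked at, of which these 2 were set apart. The FFPE effect on H2-D1 was lower in liver than in the other organs by a difference of -2.10 (limma adjusted p = 0.0263), with the scalings under which it was not called given above.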

How the results depend on the processing

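No paired analysis was possible because the columns carry no replicate number. Sums without near-identical proteins were not run, as no protein sequences were used here. The 17 alternatives, 8 of them leaving out 1 profile, kept the direction of the 41 H2 gene results with an unadjusted p under 0.05 wherever a value was given; H2-M10.4 in heart had 16, as the minimum mean log2 value of 2 left it out. Of the 14 called, 2 stayed called throughout (H2-K1 in brain, H2-Q10 in liver); of 27 not called, 9 were called in at least 1 alternative. The brain count of 8 became 5 with mitochondrial genes and scaling factors left out and 4 without FFPE heart and FFPE kidney, and leaving out 1 profile gave 1 to 10. The heart count of 2 became 0 with 2 reads added, 0 with voom weights, 0 without FFPE heart and FFPE kidney, and 1 when scaled to silent receptors, with no filter, or with genes kept from a mean log2 value of 2; leaving out 1 profile gave 0 to 3. The liver count of 4 became 7 with voom weights, and leaving out 1 profile gave 1 to 6. The kidney count stayed 0 throughout. The FFPE count of 0 became 1 with voom weights (H2-Q10, lower). The single gene whose FFPE effect differed in liver (H2-D1) was called in 0 cases with quantile normalization, with mitochondrial genes and scaling factors left out, and when scaled to silent receptors; these alternatives were chosen after seeing the data. Scaling to silent receptors moved the median difference of all genes to -0.18 in brain, 0.25 in heart, -0.11 in kidney and -0.20 for FFPE, and leaving out mitochondrial genes and scaling factors moved it to -0.14 in liver and 0.11 for FFPE. Of 35 calls among pathway and cell type genes, 7 held in all alternatives and none changed sign. The causes were not tested. Depth limits the members with few reads, down to 48 over all profiles for H2-Oa.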
